A study of Mus musculus with 6 samples.

Results

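The liver switches fuel between the fed and the fasted state, and 7 genes of this switch are described here on 6 liver arrays of C57BL/6J mice. Bdh1 and Acat1 encode mitochondrial enzymes of ketone body metabolism, Pdk2 and Pdk4 the kinases that restrain pyruvate dehydrogenase, Ppargc1a a transcriptional coactivator, and Fgf21 and Angptl4 secreted proteins. The members were all 15 probe sets, present on both array designs, that the platform annotation assigns to one of these symbols alone, out of 22626 shared probe sets that are no controls. There were 5 for Ppargc1a, 3 for Acat1, 2 each for Bdh1 and Angptl4, and 1 each for Pdk2, Pdk4 and Fgf21. A filter on low values kept 13 of the 15 and 14533 of all probe sets.

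The mice, an inbred strain prone to weight gain on fat-rich food, were assigned at random to a control diet (C) or a high-fat diet (HFC), and livers were taken at weeks 2, 4 and 10. There was 1 array for each diet and week. The labels do not give the sex or age of the mice, the composition of the diets, the hour of collection or whether the mice had been fasted, and although RNA was isolated from each mouse, they do not say how many mice one array represents. Week 4 was measured with a larger design than weeks 2 and 10, so diets were compared within weeks and levels across weeks only between weeks 2 and 10. Signal is given below as the deposited intensity after each array was rescaled to a common median. Signals under a floor of 155 were set to it, so a difference with one side at the floor is a bound.

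In fasting, fatty acids reach liver mitochondria and are oxidised to acetyl-CoA, part of which becomes the ketone bodies acetoacetate and beta-hydroxybutyrate for use by other organs. Pyruvate dehydrogenase kinases phosphorylate and switch off the pyruvate dehydrogenase complex, which spares glucose carbon. The nuclear receptor PPARalpha and the coactivator PGC-1alpha, the product of Ppargc1a, induce much of this program in hepatocytes, and Pdk4, Fgf21 and Angptl4 are established PPARalpha targets.

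Promoter sequence is shown for Pdk4 and Fgf21, which had the largest differences between the diets at single weeks, and for Pdk2, the paralog of Pdk4 that differed in the other direction at weeks 2 and 10. Each is the 250 bases before the annotated start from RefSeq (GRCm38.p6, minus strand, printed 5′ to 3′ along the gene), for Pdk2 before the start that is farthest upstream. They lie at chr6:5496279-5496528 for Pdk4, chr7:45615491-45615740 for Fgf21 and chr11:95041372-95041621 for Pdk2, immediately upstream of the annotated genes. Capitals mark matches to 6 motifs searched on both strands.
Pdk4: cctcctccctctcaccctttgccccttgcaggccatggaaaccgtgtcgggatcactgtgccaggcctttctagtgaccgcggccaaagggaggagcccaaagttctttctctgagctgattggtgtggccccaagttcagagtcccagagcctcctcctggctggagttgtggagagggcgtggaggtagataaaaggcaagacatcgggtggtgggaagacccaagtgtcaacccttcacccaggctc
Fgf21: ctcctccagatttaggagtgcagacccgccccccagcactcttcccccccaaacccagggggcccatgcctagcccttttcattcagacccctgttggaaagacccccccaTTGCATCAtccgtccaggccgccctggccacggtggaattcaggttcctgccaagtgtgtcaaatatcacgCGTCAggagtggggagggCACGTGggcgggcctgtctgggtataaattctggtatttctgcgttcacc
Pdk2: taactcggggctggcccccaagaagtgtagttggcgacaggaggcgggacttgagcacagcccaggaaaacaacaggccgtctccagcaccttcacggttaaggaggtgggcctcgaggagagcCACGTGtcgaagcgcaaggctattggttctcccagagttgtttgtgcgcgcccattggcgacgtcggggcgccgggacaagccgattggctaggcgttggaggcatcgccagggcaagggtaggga

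The Fgf21 window held the amino acid response element core TGATGCAA on the reverse strand, its printed letters starting at position -139 from the start site, a motif present in 0.791% of 32851 windows of this length. It also held the cAMP response core TGACG on the reverse strand at position -68 (17.8% of windows) and the E-box CACGTG at position -50 (6.02%). The Pdk2 window held a CACGTG at position -126. The nuclear receptor core AGGTCA (14.0% of windows), the FoxO site GTAAACA (3.17%) and the D-box TTATGTAA (0.819%), a site of clock output factors, were in none of the 3 windows, and the Pdk4 window held none of the 6 motifs. The motifs do not overlap in these windows, and a match is a description of letters, not of binding.

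The first comparison took the weeks together. None of the 13 tested probe sets passed limma with week as a block (smallest adjusted p = 0.993), where 2 of all 14533 did (0.0138%, probe sets of Krt23 and Dbp). At an unadjusted p under 0.05 there were 2 of 13, one of Bdh1 and that of Pdk4, beside 4.03% of all probe sets. The differences below are therefore differences between arrays, and with 1 array per diet and week their number limits the precision. In simulated data the test recovered 0% of changes of log2 size 1, so failing it says little about differences of that size.

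Within weeks, the brightest probe set of each gene was set against 8846 genes measured in the same way. At week 2 Bdh1 and Pdk2 were at least 1.5-fold higher with high-fat feeding (2 of 7, beside 6.83% of genes) and Pdk4 at least 1.5-fold lower (1 of 7, beside 8.79%). At week 4 Fgf21 alone of the 7 was at least 1.5-fold different, and higher (1 of 7, beside 3.87%), and none was that much lower (0 of 7, beside 6.66%). At week 10 Bdh1 was higher (1 of 7, beside 13.5%) and Pdk4 and Fgf21 were lower (2 of 7, beside 12.7%), both by more than 2-fold (beside 3.92%). In all 4 of the 7 genes were at least 1.5-fold different at 1 or more weeks, near the 42.6% of all genes. On the design shared by weeks 2 and 10, both high-fat arrays lay above both control arrays for 5 of the 13 probe sets (12.1% of all tested) and below both for 5 (14% of all). Probe sets of 1 gene are not independent, and these 10 belong to all 7 genes. The median log2 difference of the 7 genes was -0.12, 0.03 and 0.18 at weeks 2, 4 and 10, against -0.03, 0.00 and 0.02 over all genes.

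**Figure D1:**
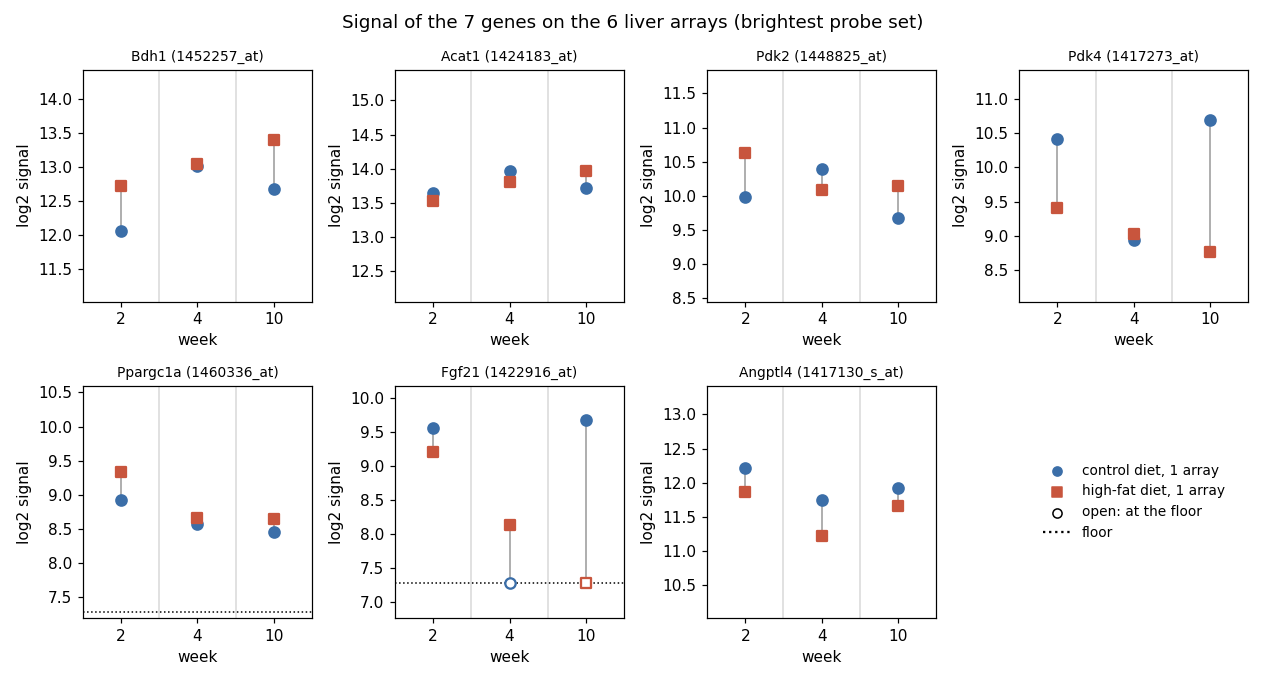
The log2 signal of the brightest probe set of each gene is plotted for the control (circle) and the high-fat array (square) of each week, 1 array per point, with the floor as a dotted line where it falls in the panel. Pdk4 and Fgf21 have the widest gaps, at week 10 with the control array on top, while the points of Acat1 and Ppargc1a lie close together at each week.

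Ketone body enzymes came first. Bdh1, which interconverts acetoacetate and beta-hydroxybutyrate in mitochondria, was higher with high-fat feeding at each week on both probe sets. On its dimmer probe set (1426959_at) the signal was 410, 504 and 432 on the control arrays of weeks 2, 4 and 10 and 758, 1054 and 762 on the high-fat arrays. High-fat was above control in each week, and at weeks 2 and 10 the groups did not overlap. The mean log2 difference was 0.92 ± 0.126 (SD, n = 3 weeks), or 1.90-fold. Its standard error was 0.213 and its adjusted p 0.993 in limma. It ranked 21st of 14533 by p and was at least 1.5-fold higher at each week, as were 0.179% of tested probe sets.

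The brighter Bdh1 probe set (1452257_at) had signals of 4260, 8275 and 6571 under the control diet and 6778, 8432 and 10787 under the high-fat diet. The groups did not overlap at weeks 2 and 10, and high-fat exceeded control by a log2 difference of 0.67 at week 2, 0.03 at week 4 and 0.72 at week 10. The mean was 0.47 ± 0.385 (SD, n = 3 weeks; limma adjusted p = 0.993). The probe sets thus gave similar differences at weeks 2 and 10 and unlike ones at week 4, at 0.03 and 1.06.

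Acat1 encodes the mitochondrial thiolase that joins acetyl-CoA units to acetoacetyl-CoA at the entry to ketogenesis, and also acts in ketone use and isoleucine breakdown. Its brightest probe set (1424183_at) had signals of 12862, 15968 and 13482 on the control arrays and 11852, 14244 and 16041 on the high-fat arrays. The groups overlapped at weeks 2 and 10, and the log2 differences were -0.12, -0.16 and 0.25. On 1451271_a_at they were 0.39, -0.21 and 0.31, and on 1424182_at 0.46, 0.20 and 0.16. No Acat1 difference reached 1.5-fold. The means of the 3 probe sets were -0.01, 0.17 and 0.27, with standard errors of 0.219, 0.228 and 0.215 (smallest adjusted p = 0.993 in limma).

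The kinases of pyruvate dehydrogenase differed from each other. Pdk4, the kinase most strongly induced by fasting, had signals of 1371, 489 and 1666 on the control arrays of weeks 2, 4 and 10. Its high-fat arrays read 679, 519 and 435. At weeks 2 and 10 both control arrays lay above both high-fat arrays, and at week 4 the diets were close. With high-fat feeding Pdk4 was 2.02-fold lower at week 2, where 1.98% of tested probe sets were at least as low, and 3.83-fold lower at week 10, where 0.255% were. At week 4 the log2 difference was 0.09. The mean was -0.96 ± 1.01 (SD, n = 3 weeks). Its standard error was 0.342 and its adjusted p 0.993 in limma. Without week 10 the mean was -0.46, and without week 4 it was -1.48.

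Pdk2, the kinase isoform that liver carries in both the fed and the fasted state, had signals of 1011, 1347 and 818 on the control arrays and 1575, 1087 and 1136 on the high-fat arrays. With high-fat feeding it was 1.56-fold higher at week 2, 1.24-fold lower at week 4 and 1.39-fold higher at week 10. The mean log2 difference was 0.27 ± 0.507 (SD, n = 3 weeks; limma adjusted p = 0.993). At weeks 2 and 10 the groups did not overlap. Leaving out week 2 gave a mean of 0.08 and leaving out week 4 one of 0.56. At each week Pdk2 and Pdk4 differed in opposite directions, although the week 4 differences of both were under 1.5-fold. With the values as deposited, where the control array of week 2 stands on a larger scale than the other arrays, the week 2 difference of Pdk2 was -0.029 and that of Bdh1 0.0017.

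Among the secreted factors, Fgf21 had the widest swings. Fgf21 is a hormone that liver releases in fasting and on other metabolic stress, and it signals to adipose tissue and brain. At week 2 its signal was 750 with control and 590 with high-fat feeding. At week 4 the control array was at the floor and the high-fat array read 282, a difference of at least 1.82-fold higher. At week 10 the control array read 814 and the high-fat array was at the floor, a difference of at least 5.24-fold lower. Only 0.0963% of tested probe sets were at least as low at week 10, and 1.53% at least as high at week 4. Before the floor was set, the low arrays read 135 at week 4 and 102 at week 10 on the rescaled scale. The mean with the floor was -0.63 ± 1.64 (SD, n = 3 weeks; limma adjusted p = 0.993). It turned to 0.26 without week 10.

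Angptl4, an inhibitor of lipoprotein lipase that is induced by fasting and by fatty acids, was lower with high-fat feeding in each week on its brighter probe set (1417130_s_at, of a type that can share sequence between transcripts). The signal was 4744, 3427 and 3866 on the control arrays and 3733, 2395 and 3248 on the high-fat arrays. The log2 differences were -0.35, -0.52 and -0.25, so none reached 1.5-fold, and at weeks 2 and 10 the groups did not overlap. The mean was -0.37 ± 0.134 (SD, n = 3 weeks; limma standard error 0.214, adjusted p = 0.993). Of the 13 member probe sets 3 were lower at all 3 weeks, beside 11.7% of all tested, and 4 were higher at all 3 weeks, beside 8.24%. The dimmer Angptl4 probe set (1453410_at) was at the floor on all 6 arrays.

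**Figure D2:**
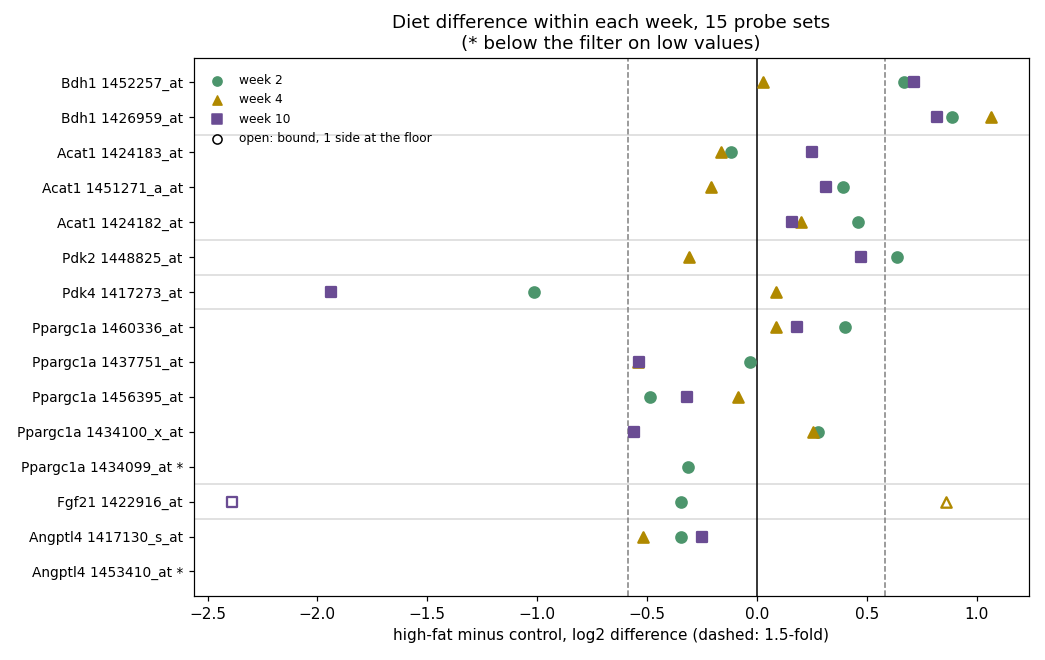
High-fat minus control log2 differences are plotted for the 15 probe sets, with week 2 as circles, week 4 as triangles and week 10 as squares, open where one side was at the floor. A week with both arrays at the floor has no point, which leaves the dimmer Angptl4 probe set empty. The Bdh1 points lie at or right of 0 and those of Angptl4 left of it. Pdk4 reaches far left at weeks 2 and 10, and Fgf21 at week 10 alone.

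Ppargc1a, the coactivator that drives gluconeogenic and oxidative genes in the fasted liver, gave no common direction over its 5 probe sets. The brightest (1460336_at) had signals of 488, 382 and 352 under the control diet and 645, 406 and 399 under the high-fat diet, higher at each week by log2 differences of 0.40, 0.09 and 0.18. The next (1437751_at) had 533, 345 and 543 under the control diet and 523, 237 and 374 under the high-fat diet, lower at each week by -0.03, -0.54 and -0.54. Another (1456395_at) was also lower at each week, by -0.48, -0.08 and -0.32. The probe set 1434100_x_at, of a type open to cross-hybridisation, had 0.28, 0.26 and -0.56. The dimmest (1434099_at) was above the floor only on the arrays of week 2, with signals of 341 with control and 274 with high-fat feeding. No Ppargc1a difference reached 1.5-fold at any week, and the smallest adjusted p of its 4 tested probe sets was 0.993 in limma.

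**Figure D3:**
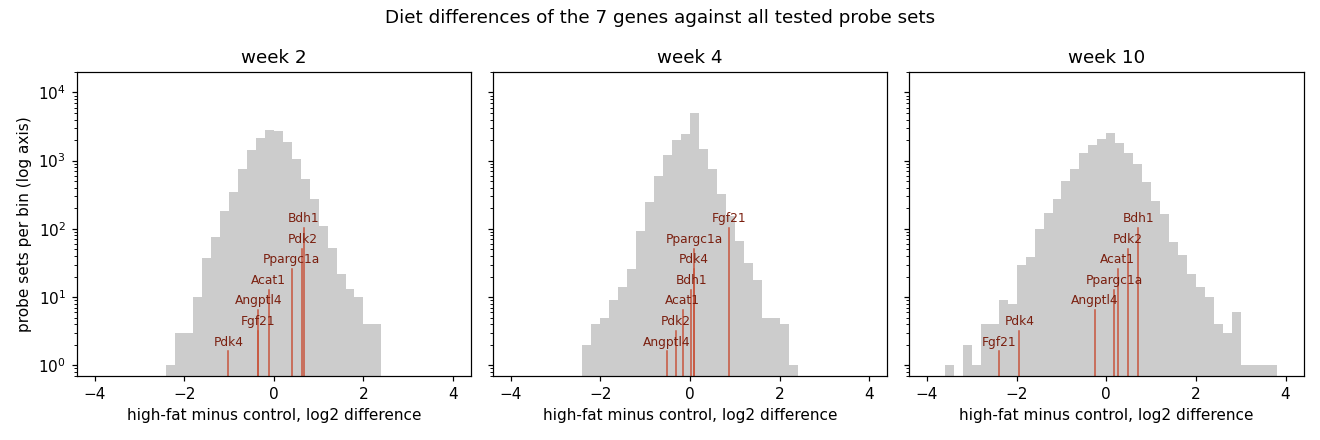
The distribution of high-fat minus control log2 differences over the 14533 tested probe sets is drawn in grey for each week, with the count on a log axis, and a line marks the brightest probe set of each of the 7 genes (line heights only separate the names). Fgf21 and Pdk4 lie in the lower tail at week 10 and Fgf21 in the upper tail at week 4, and both of these Fgf21 values are bounds.

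Within the smaller design, week 10 was set against week 2 on each diet. On the control diet Pdk4 was 1.22-fold and Fgf21 1.09-fold higher at week 10, and none of the 7 was at least 1.5-fold lower (beside 9.57% of genes). On the high-fat diet Pdk4 was 1.56-fold lower, Fgf21 at least 3.80-fold lower and the brightest Ppargc1a probe set 1.61-fold lower at week 10. Thus 3 of 7 genes were at least 1.5-fold lower, beside 13.2% of genes. That Ppargc1a probe set was 1.39-fold lower on the control diet as well. The gene's other tested probe sets did not concur on the high-fat diet, with log2 differences of -0.48 (1437751_at), 0.0008 (1456395_at) and -1.26 (1434100_x_at). Bdh1, on its brighter probe set, was higher at week 10 on both diets, by 1.54-fold and 1.59-fold (1 of 7 on each diet, beside 11.8% of genes with control and 19.7% with high-fat feeding). On its dimmer probe set the log2 difference was 0.08 for the control diet and 0.0086 for the high-fat diet.

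The other genes of the pathway were taken from lists by role, and none of their tested genes passed limma apart from Dbp on another probe set than its brightest. The list of the pyruvate dehydrogenase complex and its other regulators also held the pyruvate carrier Mpc1 and Pcx, which belong to neither. Of its 8 measured genes 7 passed the filter, these included. All 7 were higher with high-fat feeding at week 10, with a median log2 difference of 0.38, against 0.02 over all genes. At all 3 weeks 4 were higher, beside 8.24% of tested probe sets. Pdha1, the catalytic subunit that the kinases phosphorylate, had 0.20, 0.16 and 0.57, and the kinase Pdk1 0.41, 0.25 and 0.38. Dlat, the acetyltransferase core, had a mean of 0.18. Pyruvate carboxylase, Pcx, which feeds pyruvate into gluconeogenesis, had 0.77, 0.28 and 0.42.

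Of the 14 measured genes of the PPARalpha axis 3 were at least 1.5-fold higher at week 4, beside 3.87% of genes. Lower by as much at week 10 were 3, beside 12.7%. The list's medians were 0.18, 0.12 and -0.45. Acot1, an acyl-CoA thioesterase and PPARalpha target, had 0.12, 0.94 and -2.06. Like Fgf21 it was thus higher at week 4 and lower at week 10. Cyp4a14, a fatty acid omega-hydroxylase, had 0.19, -0.35 and -0.86, whereas Vnn1, another PPARalpha target, had 0.03, 0.86 and 0.57, and the carnitine carrier Slc25a20 0.19, 0.30 and 0.81. The list therefore did not go one way at any week.

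The genes that insulin and fasting regulate in opposite ways were mostly lower. Of the 6 measured genes, 5 were at least 1.5-fold lower at week 4 (beside 6.66% of genes) and 4 at week 10 (beside 12.7%). The list medians were -0.22, -0.92 and -0.72. The hepatocyte markers, which share Tat with this list, had medians of -0.20, -0.88 and -0.49. Of the 6 markers, 5 were at least 1.5-fold lower at week 4 and 1 at week 10, beside the same shares of genes. Their part in the list's values was not tested. G6pc, glucose-6-phosphatase, had signals of 12343, 22149 and 19907 under the control diet and 8449, 7870 and 7264 under the high-fat diet, lower in each week. Igfbp1, an insulin-repressed secreted protein, had log2 differences of -0.22, -0.99 and -0.83, and the aminotransferase Tat -0.59, -0.94 and -0.58. Pklr, pyruvate kinase of the fed liver, had 0.13, 0.55 and 1.61. At week 4, where G6pc was lower by a log2 difference of 1.49, Pdk4 had 0.09. Loess on brightness left Pdk4 at 0.09 at that week, but moved the brightest Acat1 probe set from -0.16 to 0.28. G6pc and the other genes of this list, most of them bright, were not set against that scaling.

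**Figure D4:**
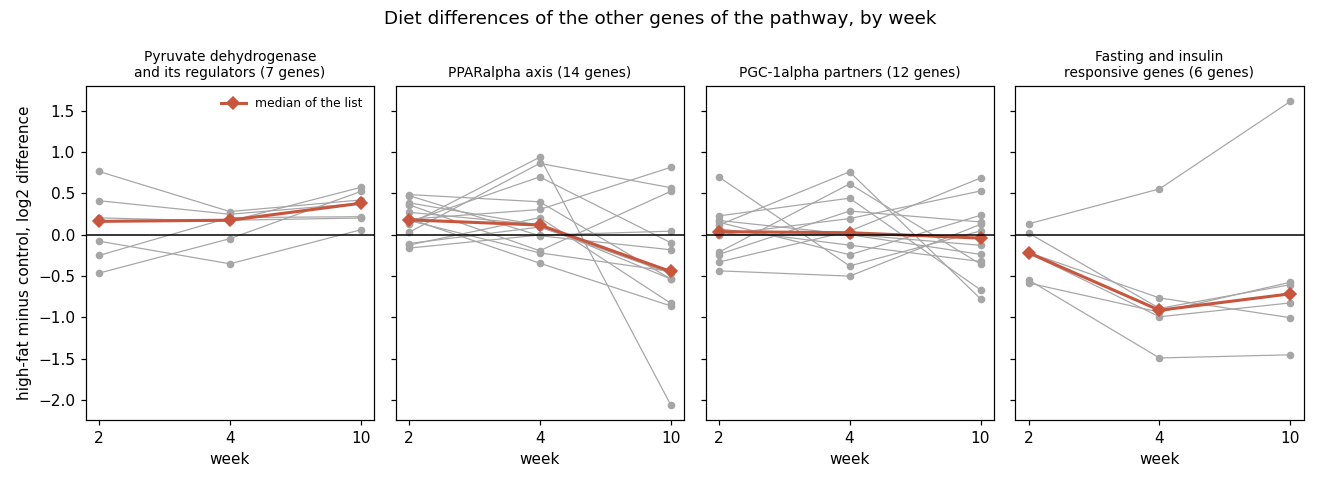
High-fat minus control log2 differences are plotted by week (weeks equally spaced) for the genes above the filter in 4 pathway lists, 1 grey line per gene and the list median in red. The median of the fasting and insulin responsive genes is below 0 at all 3 weeks, that of pyruvate dehydrogenase and its regulators above 0, and that of the PPARalpha axis below 0 only at week 10.

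In the next lists differences were mostly small or mixed, apart from Lpl, which was higher with high-fat feeding at each week. Of 9 ketone body genes listed beside Bdh1 and Acat1, 5 were measured and 3 passed the filter; the others were not analysed here. Slc16a1, the carrier that moves ketone bodies and lactate across the membrane, had -0.10, 0.11 and -1.05, Aacs, which returns acetoacetate to lipid synthesis, a mean of 0.06, and the carrier Slc16a7 one of -0.03. Slc16a6 was above the floor on 1 array, with a mean of -0.10. Of the 5 FGF21 receptor genes, which include the co-receptor Klb, the receptors had means of 0.24 for Fgfr3, 0.20 for Fgfr2, -0.15 for Fgfr4 and -0.12 for Fgfr1.

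Lpl, the lipase that Angptl4 inhibits, had 0.78, 2.18 and 0.54, while its maturation factor Lmf1 had 1.13, -0.19 and 0.50 and the related Angptl8 and Angptl6 had means of 0.04 and -0.03. The 12 partners and effectors of PGC-1alpha had list medians of 0.04, 0.02 and -0.04, with means of -0.27 for Nrf1, 0.24 for Nr3c1, 0.13 for Lpin1 and -0.13 for Hnf4a. In the amino acid stress response, which includes inducers of Fgf21, the 6 genes had list medians of -0.14, 0.00 and -0.22. Chac1 had a mean of 0.48, Atf4 of -0.36, Sesn2 of -0.27 and Ddit3 of -0.14. At week 4, where Fgf21 was higher, Chac1 had 1.01 and Atf4 -0.70.

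Clock genes also differed between the diets. Of the 11 measured above the filter, 6 were at least 1.5-fold higher (beside 6.83% of genes) and 3 lower (beside 8.79%) with high-fat feeding at week 2. At week 4 these were 1 and 2 (beside 3.87% and 6.66%), and at week 10 they were 5 and 5 (beside 13.5% and 12.7%). Nr1d1, a clock repressor, had 1.69, 0.00 and 2.27, Arntl, a clock activator, -1.30, -0.71 and -1.94, Nfil3 -1.80, -0.63 and -0.68, and Dbp at least 1.85, 1.80 and 3.42. The weeks at which Pdk4 was lower, 2 and 10, were those at which Nr1d1 was higher. Nr1d2 (1.14, 0.16 and 1.18), Tef (0.97, 0.05 and 1.07) and Cry2 (at least 1.61, then 0.01 and 0.57) were higher at those weeks too. Per3 had 0.80 and 0.72 there, with both arrays at the floor at week 4. Cry1 had at most -1.12, -0.19 and -0.73, with the high-fat array at the floor. Arntl, Nfil3 and Dbp differed at week 4 too, where Pdk4 had 0.09. Clock (0.24, -0.28 and -0.67) and Per1 (0.02, 0.53 and at most -1.94) had other patterns. The hour of collection is not in the labels, and its part in these results was not tested.

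Cell type markers and RNA quality were set beside the members. Hepatocyte markers were present at high signal on every array, as in liver, and all 6 measured were lower with high-fat feeding at weeks 4 and 10. Their median log2 differences were -0.88 and -0.49 there, against 0.00 and 0.02 over all genes. Of the adipocyte markers, Adipoq and Lep were at the floor on all 6 arrays and Retn above it on 3, and the summed signal of the 3 was 466 to 573, with 466 being all at the floor. Of the muscle markers 4 of 6 were at the floor on all arrays, and the sum of the 6 was 932 to 1046. All 8 macrophage markers were higher with high-fat feeding at week 10 (summed signal 11538 against 19777, and 15647 to 23848 on the other arrays). Their median log2 difference was 0.81, against 0.02 over all genes. At that week the 3 pancreatic acinar markers above the filter were also at least 1.5-fold higher, beside 13.5% of genes (median 1.18, summed signal 1092 against 2374). The 3 endothelial markers above the filter were higher (median 0.44, Cdh5 350 against 1398), as were 5 of 6 stellate and matrix markers (median 0.38). The median over all genes at week 10 was 0.02. In bulk liver, fewer cells of a type and less RNA per cell cannot be told apart. The markers were also given on the median-centred scale alone. At week 4 the brightest Acat1 probe set, bright like the hepatocyte markers, had -0.16 on that scale and 0.28 after loess on brightness. The part of the scaling in the marker values was not tested. The 3'/5' signal ratio of pyruvate carboxylase, a sign of RNA integrity, differed between the diets by log2 values of 1.33, 0.87 and -0.74, that of actin by 0.42, 0.13 and -0.56, and that of Gapdh by 0.37, -0.01 and -0.12. The spiked-in BioD control had a deposited intensity, before rescaling, of 21252 on the control array of week 10, against 3822 to 13606 on the others. The part of these in the members' differences was not tested.

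The genes whose pattern of 3 diet differences lay closest to a member's were sought among 6051 genes above the floor on all 6 arrays, for the 2 members of that kind with the largest mean absolute difference. For Pdk4 they were Ube2w (-0.55, -0.15 and -1.80, a Euclidean distance of 0.54), Dnajc21 (distance 0.65) and Rpgrip1 (distance 0.79). For Pdk2 they were Lrrc41 (0.62, -0.21 and 0.45, distance 0.11), Atg101 (0.14) and Skiv2l (0.14).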

How the data were processed

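RNA came from the same liver lobes of each mouse and was labelled as biotinylated cRNA for Affymetrix arrays, per the labels' protocols. The authors deposited linear intensity values for each probe set. How probes were summarised is not given in the sources used. Judged by the values, the arrays had been scaled to a 2% trimmed mean near 500, but the control array of week 2 to 800. Starting from those deposited intensities, log2 values of the 22626 shared probe sets (64 controls left out) were centred per array on the median of the 9922 above the floor on every array. The floor was the pooled 40th percentile (7.28 on the log2 scale). Probe sets above it on at least 3 of 6 arrays were kept. Symbols come from the platform annotation (20380 probe sets with 1 symbol, 691 with several, 1555 unnamed). For 20351 the gene identifier was matched in RefSeq and the symbol taken from there. The brightest probe set stood for a gene.

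Diets were compared with limma 3.58.1 in R 4.3.3 (lmFit, eBayes, week as a block, Benjamini-Hochberg over all 14533 probe sets at 0.05). Its error is the spread of the diet difference over the weeks, moderated toward that of all tested probe sets. A single week, with 1 array per diet, has no test, and the spread between mice of 1 diet and week was not measured. The fit was tested on simulated data with the means and spreads of the real probe sets. It recovered 0% of changes of log2 size 1, 58.21% of size 2 and 84.85% of size 4, with 4 false calls. Every member is described. From each list the text names up to 4 measured genes with the largest absolute mean difference. Klb, Mpc1 and the other clock genes above the filter were named after their values were seen. Other genes were named by likeness to Pdk4 and Pdk2. Members and lists were chosen with earlier results of these data known. Promoter windows for 5 of the 7 genes were found in the RefSeq table used. Alternatives were other scalings, floors, filters, gene summaries, variance models, no week block and each week left out. Figures were drawn with matplotlib 3.10.9.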

Additional observations from a re-analysis of the deposited data

Results flagged for a closer look

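The diet difference of Fgf21 (1422916_at) went in opposite directions at weeks 4 and 10, each by more than 1.5-fold. At week 4 it was 0.86 on the log2 scale, with the control array at the floor, and at week 10 it was -2.39, with the high-fat array at the floor. Each week has 1 array per diet, so the difference between the weeks was not tested, and the arrays of week 4 are of another design. With the floor at the 60th percentile the week 4 difference was 0.00 and that of week 10 was -1.21.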

How the results depend on the processing

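No member probe set passed the limma test under any of the 14 alternatives, and the smallest adjusted p of any member was 0.158 (Bdh1 1426959_at without week 10). Over the alternatives the mean log2 difference was 0.74 to 0.98 for that probe set, -1.48 to -0.46 for Pdk4 and -0.56 to -0.30 for Angptl4. The number of genes at least 1.5-fold different at week 4 fell from 1 to 0 with the floor at the 60th percentile, which takes in both Fgf21 values. Mean differences changed sign for 5 probe sets, none of them called, and the cause was not tested. Acat1 1424183_at (-0.01) had 0.23 under quantile normalization, 0.20 after loess on brightness, 0.14 as the mean of its probe sets and -0.14 to 0.066 without each week in turn. Acat1 1451271_a_at had -0.023 with the values as deposited, and the mean of the Ppargc1a probe sets was -0.16. Ppargc1a 1434100_x_at (-0.01) had 0.12 under quantile normalization, 0.035 after loess and -0.15 to 0.27 without each week in turn, and Fgf21 -1.37 to 0.26. With the values as deposited the median of all tested probe sets at week 2 was -0.67, and 4 rather than 3 genes were at least 1.5-fold different. Pdk2 had -0.029 and Bdh1 0.0017, no longer 1.5-fold higher, Acat1 (-0.79), Fgf21 (-1.02) and Angptl4 (-1.01) were lower by over 1.5-fold, and Ppargc1a had -0.27 in place of 0.40. Without the week block (no replicate block) 0 member probe sets and 0 of all probe sets were called. At week 4 the brightest Bdh1 probe set had 0.34 under quantile normalization and after loess, in place of 0.03. The brightest Acat1 probe set had 0.43 and 0.28 there, in place of -0.16. List genes and cell type markers are given on the median-centred scale alone, and were not set against these scalings. The number of arrays and the floor limit what can be seen of dim probe sets.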
